A study of Homo sapiens with 26 samples.

Results

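The exons described here are short pieces of messenger RNA that the authors listed as EZH2-associated in T98G cells but in neither K562 nor U87MG cells, in genes with several listed exons. They were chosen by the authors' calls: a row of the T98G small RNA list entered where it was under 500 bp wide, shared no base with any row of the K562 or U87MG lists, and carried a first gene symbol that heads at least 2 T98G rows. By this rule 598 of the 2573 T98G rows entered (23.2%), in 353 of the 1982 genes of the list (17.8%). Because the calls chose them, their being absent from the other lines and their number per gene are descriptions. The widest exons that entered were in FASTKD1 (487 bp) and BRD1 (498 bp), and the narrowest that were kept out on width alone were in TTC37 (514 bp) and PHLPP2 (519 bp).

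EZH2 is the catalytic subunit of Polycomb repressive complex 2, which methylates histone H3 on lysine 27 and has been reported to bind many RNAs. RNA immunoprecipitation (RIP) recovers and sequences the RNA held by an antibody to the protein. In the small RNA kit named in the labels, the 3′ end of each RNA receives an adapter, to which the primer for reverse transcription binds. The title of the study names mispriming in that step, in which the primer anneals inside an RNA at a place that resembles the adapter. As general background on such kits, and not from the labels, the adapter begins with AGATCGG. A primer that annealed inside an RNA would leave these letters in the genome directly after the end of the read.

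T98G is an immortalized glioblastoma line. Its 6 small RNA libraries, from untreated cells, comprise 2 with an antibody to EZH2, 2 with control IgG2a and 2 of input without antibody, each with gel-selected products of 20 to 50 bases. K562, an immortalized chronic myeloid leukaemia line, has 1 library each of EZH2, IgG and input, and U87MG, another immortalized glioblastoma line, has the same 6 as T98G, also untreated. The members were also compared with other lists: RNAs listed as full-length EZH2 targets in T98G, and genes changed in U87MG after siRNA against EZH2 relative to siRNA against GFP (2 polyadenylated RNA libraries per arm). The lists carry no counts for single libraries, so no value has a replicate error, the depth behind each call is unknown, and the marker genes of the lines could not be checked. Differences between the lines cannot be told apart from differences in depth. All 95% intervals are Wilson intervals for a share and Newcombe intervals for a difference of shares, and they cover counting over exons or genes only. Exons of a gene share their source and are not replicates.

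Each T98G row gives a distance that places a peak of reads relative to the exon's middle, inside the exon for 569 of 596 members. The sequences of 6 members are shown because the letters AGATCGG start 11 to 15 bases downstream of the peak middle, counting the first base after it as 1. They are all the members with this 7-letter match. Each line holds 20 bases before and 25 bases after the peak middle on the RNA strand, from the GRCh37 genome (the assembly behind hg19), with the matched letters in capitals.
COPA, exon 14 of 33 (chr1:160276955-160276999, minus strand): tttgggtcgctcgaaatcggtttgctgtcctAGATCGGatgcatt
NACC2, exon 3 of 6 (chr9:138908169-138908213, minus strand): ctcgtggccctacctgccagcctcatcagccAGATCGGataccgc
HERC4, exon 15 of 25 (chr10:69748489-69748533, minus strand): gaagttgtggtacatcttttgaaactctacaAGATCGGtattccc
RBM23, exon 8 of 14 (chr14:23374419-23374463, minus strand): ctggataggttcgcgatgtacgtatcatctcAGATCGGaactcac
MYO9B, exon 20 of 40 (chr19:17301981-17302025, plus strand): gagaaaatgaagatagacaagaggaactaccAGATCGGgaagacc
PRPF6, exon 12 of 21 (chr20:62648132-62648176, plus strand): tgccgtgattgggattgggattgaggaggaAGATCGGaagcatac

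All 6 exons are coding, although the first 8 bases of the RBM23 window are intron, and the 30 bases before position 11 occur at 1 place in the genome for each. In 5 of the 6 the match starts at base 12, and in PRPF6 at base 11. The genes have unrelated roles: COPA encodes the alpha subunit of the COPI vesicle coat, NACC2 a BTB-domain transcriptional repressor, HERC4 a HECT ubiquitin ligase, RBM23 an RNA-binding protein, MYO9B an unconventional myosin and PRPF6 a component of the spliceosomal tri-snRNP.

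Shorter matches were commoner. Of the 596 members with a usable peak, 155 had AGAT starting 11 to 15 bases downstream (26.0%, 22.6 to 29.7), and 13 (2.18%, 1.28 to 3.70) had it in the window 20 bases further. Earlier results of these data had shown the window of 11 to 15. Its contrast with the window further on is therefore a description and not a test. Over all 2463 T98G peaks the share at 11 to 15 was 25.8%, so the members' share lay at the level of the whole list. AGATC was found at 71 member peaks (11.9%, 9.55 to 14.8) against 4 in the window further on. AGATCG was found at 21 (3.52%, 2.32 to 5.33) against 0. A limit of 3 counts puts that share at up to 0.503%, and the Wilson interval reaches 0.640%. By position, AGAT started at base 10 in 1 member, at base 11 in 41, at base 12 in 54, at base 13 in 26, at base 14 in 21 and at base 15 in 13.

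**Figure D1:**
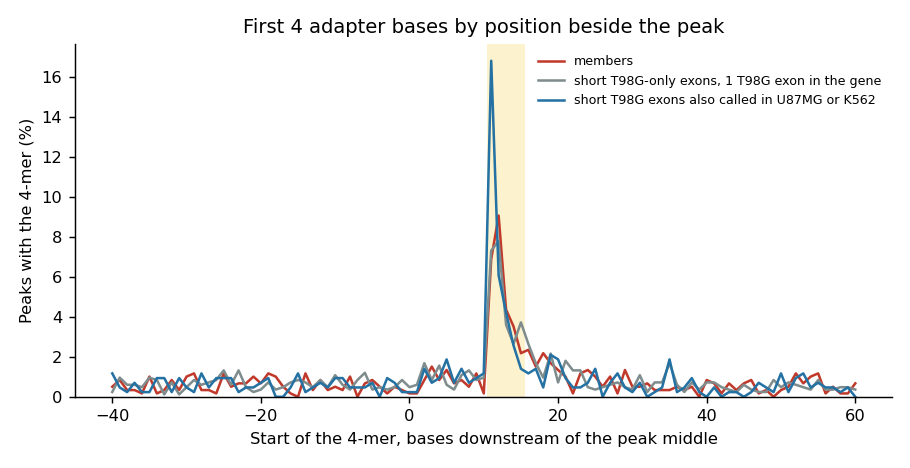
Share of peaks (%) in which the first 4 adapter bases start at each position from 40 bases upstream to 60 bases downstream of the peak middle, for the 596 member peaks and 2 other sets of short T98G exons. The shaded band marks starts 11 to 15; members reach 9.06% at base 12, and exons also called in another line reach 16.8% at base 11.

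At the single position 11 the commonest 4-letter words among members were AGAT (41 peaks), CAGA (26), AAGA (25) and AGAA (21), and 20 bases further these words were found 3, 2, 8 and 5 times. CAGA and AAGA hold the start of the adapter moved 1 base downstream. Against all 7 letters AGATCGG, 68 further members matched at 6 in the window (11.4%), and 1 did so 20 bases on (0.168%). Against the first 4 letters, at 251 members without the whole AGAT (42.1%) the best match in the window was 3 of the 4 letters, against 206 (34.6%) in the window 20 bases on. Purines made up 54.2% of bases at position 10, 62.2% at 11, 68.6% at 12 and 74.3% at 13. The share fell to 54.0% at 15 and rose again to 76.2% at 20. A 7-letter match that starts at 15 still covers base 20, so this rise is not separate from the matches. At base 22, past the end of such a match, the share was 69.0%. By single letters, T rose from 14.1% at 13 to 25.5% at 14 and 28.7% at 15. G made up 35.6% at 17 and 39.1% at 18. The part of a purine-rich stretch in these matches was not tested.

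The members were set beside 837 short T98G-only exons of genes with 1 listed exon, and beside 429 short T98G exons that were also called in U87MG or K562. The share with AGAT at 11 to 15 was 25.1% in the first set, and the difference from members was 0.947 percentage points (-3.59 to 5.57). In the exons also called in another line it was 31.1%, and members minus these exons was -5.07 points (-10.7 to 0.508). Both intervals hold 0. The sets did differ at base 11 alone, a position chosen after the profile had been seen: 6.88% of member peaks and 16.8% of peaks in exons called in another line had AGAT there, a difference of -9.94 points (-14.2 to -5.95). Exons of genes with 1 listed exon had 7.31% at this position, and members minus these exons was -0.435 points (-3.08 to 2.37). At base 12 the order was the other way, with AGAT at 9.06% of member peaks and 6.07% of peaks in exons called in another line.

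In 191 genes with at least 2 member peaks, 104 had AGAT in the window at none, 76 at some and 11 at all of them. Among the 156 genes with exactly 2 member peaks, 86 had it at 0, 59 at 1 and 11 at 2. Over all member peaks the share was 26.0%, so some genes with AGAT at both are to be found at that share alone. Whether matches gather in the same genes was not tested. The 11 genes with AGAT at both were AHCTF1, BAZ1B, DOCK5, EML4, FASTKD1, HDLBP, KPNB1, PPP2R1B, PRPF6, RB1CC1 and YLPM1. Of these, BAZ1B, a subunit of chromatin remodelling complexes, and PRPF6 had the 6 letters AGATCG at both. Their further windows, with the match in capitals, are shown for that reason.
BAZ1B, exon 8 of 20 (chr7:72884678-72884722, minus strand): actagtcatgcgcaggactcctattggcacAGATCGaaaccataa
BAZ1B, exon 18 of 20 (chr7:72857078-72857122, minus strand): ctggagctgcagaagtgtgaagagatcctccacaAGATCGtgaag
PRPF6, exon 16 of 21 (chr20:62658426-62658470, plus strand): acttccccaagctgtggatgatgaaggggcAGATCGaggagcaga

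Member exons were internal coding exons for the most part. The GENCODE release 44 annotation, in its GRCh37 version, holds an exon with the same strand and both ends for 580 of the 598 (97.0%, 95.3 to 98.1). Of these 580, 466 were coding over their whole length in at least 1 transcript with those ends (80.3%, 76.9 to 83.4), 25 were coding in part, 9 were untranslated exons of coding transcripts, and 80 matched only transcripts annotated without coding sequence. Counted by any overlap, 565 of the 598 touched coding sequence (94.5%). Of 581 members on the canonical transcript of a gene, 575 were internal exons (99.0%, 97.8 to 99.5), 4 were first and 2 were last exons. In the exons of genes with 1 listed exon 765 of 805 were internal, a share 3.94 points lower (2.17 to 5.75), and the share of wholly coding exons was 72.6%, 7.78 points lower (3.21 to 12.2). In exons also called in another line 81.9% were wholly coding, and members minus these was -1.59 points (-6.45 to 3.47). Member genes had a median of 25 exons in the canonical transcript and genes with 1 listed exon a median of 15. The rule, which asks for 2 rows of a gene, favours genes with many exons, and its width limit leaves out wide exons. Over the whole T98G list, wide exons included, 82.5% were internal (2063 of 2501) and 64.0% were wholly coding (1425 of 2225). The members' higher shares therefore cannot be read apart from the rule.

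The members had a median width of 145 bp (33 to 498 bp) and a median GC content of 43.8%. The peak lay a median of 71 bases from the exon's 5′ end and 60.5 bases from its 3′ end. It was downstream of the exon's middle in 316 of 596 (53.0%, 49.0 to 57.0), against 51.0% in exons of genes with 1 listed exon, 2.06 points lower (-3.19 to 7.28). In exons also called in another line it was 46.7%, 6.29 points lower (0.0842 to 12.4). In 27 members the peak middle lay outside the listed exon, by at most 22 bases, 14 of them upstream and 13 downstream.

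Within their genes most neighbouring members were not consecutive exons, a spacing that was not compared with random placement. Of the 353 genes, 161 held 1 member (with other T98G rows that were wide or also called in another line), 157 held 2, 24 held 3, 8 held 4, 2 held 6 and 1 held 7. In 126 genes every T98G row was a member. Neighbouring members of a gene formed 245 pairs, of which 239 shared an annotated transcript, and 30 of these were consecutive exons (12.6%, 8.94 to 17.4). On canonical transcripts, neighbouring members lay a median of 7 exon numbers apart over 235 pairs, with 86 pairs up to 5 apart and 20 pairs over 20 apart. The median genomic distance was 17400 bp.

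**Figure D2:**
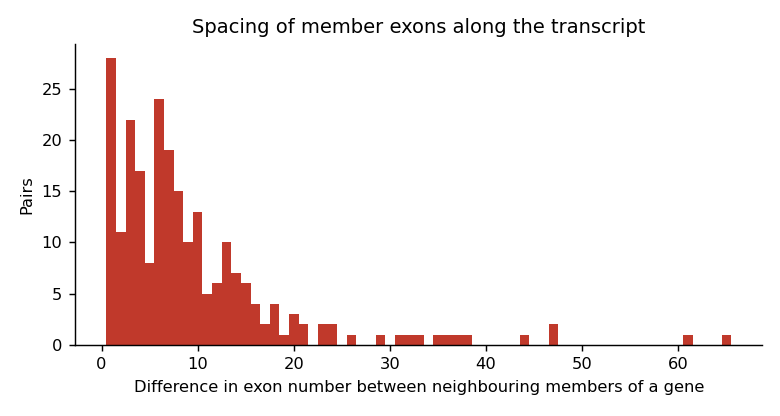
Number of pairs of neighbouring members (vertical axis) by their difference in exon number on the canonical transcript (horizontal axis), for 235 pairs. The bar at 1, consecutive exons, holds 28 pairs, the median is 7 and the largest difference is 65.

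The longest run was in WWC3, a WW- and C2-domain protein of the KIBRA family, whose 4 members are exons 4, 5, 6 and 7 of 24. TM9SF4, a membrane protein with several spanning segments, had 3 in a row (exons 4 to 6 of 18). DYNC2H1 (exons 3 and 4), UTRN (exons 52 and 53) and ANKHD1 (exons 6 and 7) each had a pair in a row. The WWC3 windows are shown because the exons are consecutive and none of the 4 has AGAT in the window of starts. Exon 7 nonetheless matches 6 of the 7 letters AGATCGG from base 14, whereas exons 4, 5 and 6 match at most 4, 5 and 3. No letters are in capitals, and the windows run into neighbouring intron sequence in exons 5, 6 and 7.
WWC3, exon 4 (chrX:10035335-10035379, plus strand): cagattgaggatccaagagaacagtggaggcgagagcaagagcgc
WWC3, exon 5 (chrX:10046878-10046922, plus strand): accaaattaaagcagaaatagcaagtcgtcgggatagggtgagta
WWC3, exon 6 (chrX:10047817-10047861, plus strand): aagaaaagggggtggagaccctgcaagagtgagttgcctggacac
WWC3, exon 7 (chrX:10058781-10058825, plus strand): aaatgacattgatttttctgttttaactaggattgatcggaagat

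In WWC3 the peak middle lay 8 bases before the 3′ end of exon 6 and 10 bases upstream of the start of exon 7. The latter window therefore holds 15 bases of the exon.

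The 11 genes with at least 4 members held 51 of them, and 12 of their 51 peaks had AGAT at 11 to 15. COL12A1, the alpha chain of collagen XII, a fibril-associated collagen, held the most. Its canonical transcript spans chr6:75794042-75915769 on the minus strand with 66 exons, and its 7 members are exons 15, 22, 34, 40, 47, 50 and 56. They make up every T98G row of the gene, are 96 to 267 bp wide, and together cover 1088 of the 11725 bases of the transcript. Exons 15, 40 and 50 have AGAT in the window, and in exon 50 the match runs to AGATCG, its last letter lying past the exon's end. Windows of 4 of the 7 are shown, the 3 with a match and exon 56, which has none.
COL12A1, exon 15 (chr6:75866197-75866241, minus strand): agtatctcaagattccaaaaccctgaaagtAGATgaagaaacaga
COL12A1, exon 40 (chr6:75834846-75834890, minus strand): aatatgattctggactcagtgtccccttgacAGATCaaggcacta
COL12A1, exon 50 (chr6:75823308-75823352, minus strand): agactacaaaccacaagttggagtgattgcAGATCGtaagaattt
COL12A1, exon 56 (chr6:75812313-75812357, minus strand): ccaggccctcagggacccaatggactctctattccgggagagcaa

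DYNC2H1 encodes the heavy chain of cytoplasmic dynein 2, the motor that returns cargo along the cilium (chr11:102980155-103350591, plus strand, 89 exons). Its 6 members are exons 3, 4, 10, 20, 26 and 87, and 3 further T98G rows, exons 23, 31 and 61, were also called in another line. Exons 3, 4 and 26 have AGAT in the window, starting at base 15, 12 and 13. In exon 10 the peak middle lay 2 bases past the exon's end. The windows of the consecutive exons 3 and 4 are shown.
DYNC2H1, exon 3 (chr11:102984882-102984926, plus strand): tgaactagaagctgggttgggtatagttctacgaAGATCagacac
DYNC2H1, exon 4 (chr11:102985938-102985982, plus strand): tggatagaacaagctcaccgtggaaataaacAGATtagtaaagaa

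UTRN encodes utrophin, the relative of dystrophin that links actin to the cell membrane (chr6:144606471-145174170, plus strand, 75 exons). Its 6 members, exons 11, 28, 52, 53, 66 and 71, are all of its T98G rows, and exons 52 and 71 have AGAT in the window. The row at exon 71 (313 bp) does not coincide with an annotated exon. ABCC4, an efflux transporter of the ABC family (chr13:95672089-95953705, minus strand), had members at exons 4, 6, 13 and 27 of 31, with AGAT at exons 6 and 13. HERC2, a giant HECT ubiquitin ligase (chr15:28356186-28567325, minus strand), had members at exons 3, 24, 26 and 39 of 93, with AGAT at exon 24. VPS13C, a bridge protein of lipid transfer (chr15:62144588-62352646, minus strand), had members at exons 29, 36, 39 and 55 of 85, with AGAT at exon 29.

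In 5 of the 11 genes no member peak had AGAT in the window. Besides WWC3 these were ANKHD1, an ankyrin-repeat and KH-domain protein (exons 6, 7, 11 and 18 of 34), and MYOF, the ferlin myoferlin (exons 6, 14, 22 and 23 of 54). The others were NCKAP1, a subunit of the WAVE complex that drives actin branching (exons 12, 13, 24 and 27 of 31), and USP24, a deubiquitinase (exons 47, 49, 59 and 67 of 68). The 11 genes thus ranged from 0 to 3 matched peaks.

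**Figure D3:**
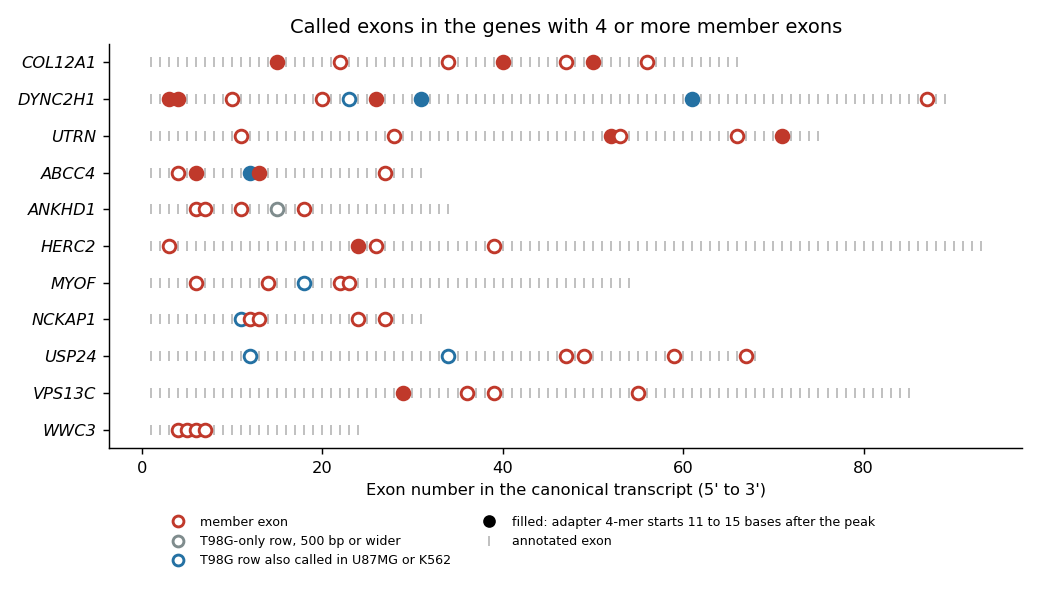
Exon number in the canonical transcript (horizontal axis) for the 11 genes with at least 4 members; ticks are annotated exons and circles are T98G rows, coloured by kind and filled where the first 4 adapter bases start 11 to 15 bases after the peak. Of 60 circles, 51 are members, and 12 of the 51 are filled, in 6 of the 11 genes.

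For part of the members, the bases searched beside the peak occur at several places in the genome. The 30 bases that end 10 bases past the peak middle were found, exactly and on either strand, at 1 place in the GRCh37 genome for 533 of 596 members (89.4%, 86.7 to 91.7) and at several places for 63 (10.6%, 8.35 to 13.3). The share with several places was 9.95% in exons of genes with 1 listed exon, a difference of 0.618 points (-2.52 to 3.91). It was 6.07% in exons also called in another line, a difference of 4.50 points (1.02 to 7.82). In 9 groups, members of different genes had the same 30 bases, 27 members in 20 genes. They come from the NPIPB genes and SMG1 pseudogenes (GENCODE places rows named NPIPB4 and NPIPB5 by the authors in SMG1P4 and SMG1P1), from FAM21A, FAM21B and FAM21C, from EIF3C and EIF3CL, and from RANBP2 with RGPD genes. RANBP2, a nuclear pore protein, and its duplicates RGPD1, RGPD2 and RGPD4 are shown because the windows, each over exon 10, are identical and hold AGATC at base 11.
RANBP2 (chr2:109367862-109367906, plus strand): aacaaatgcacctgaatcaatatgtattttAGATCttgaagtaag
RGPD1 (chr2:87201338-87201382, plus strand): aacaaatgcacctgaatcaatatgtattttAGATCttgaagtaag
RGPD2 (chr2:88095181-88095225, minus strand): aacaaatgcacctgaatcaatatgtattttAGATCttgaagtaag
RGPD4 (chr2:108475712-108475756, plus strand): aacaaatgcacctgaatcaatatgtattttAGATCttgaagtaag

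Reads from any of these copies cannot be told apart over those bases, so the count of member genes is an upper count of the loci of origin. Of the HERC2 members, exons 3, 26 and 39 also had several copies (4, 4 and 5), whereas exon 24 had 1. With the peaks at 1 place alone, 25.7% of 533 members had AGAT in the window.

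Gene lists for 9 functions, drawn up with earlier results of these data known, show what the member genes do. Over the whole T98G list 17.8% of genes hold a member. The rule favours genes with many exons, so the shares of the lists are a description. Ubiquitin ligases and partners led, with a member in 16 of the 23 genes that have a T98G row (69.6%) and 32 members in all. They include USP24 and HERC2 (4 each), and UBR1 and UBR2, which recognise destabilising N-terminal residues (3 each). HUWE1, BIRC6, HERC1, HECTD4 and the scaffold CUL1 were among those with 2 each.

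Motor proteins had a member in 8 of 14 genes (57.1%), with 18 members. DYNC2H1 had 6, and DYNC1H1, KIF13A, MYO9B, MYH9 and MYH10 had 2 each. Genes of genome upkeep had one in 10 of 18 (55.6%), among them the damage kinases ATM (3) and ATR (2), the SMC5 and SMC6 pair (2 and 3) and the cohesin subunit STAG2 (3). Centrosome and cilium genes had one in 8 of 16 (50.0%), led by pericentrin, PCNT (3). Vesicle and lipid transfer genes had one in 12 of 25 (48.0%), among them VPS13C (4), TRAPPC11 and NBEAL1 (3 each).

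Chromatin and transcription regulators had a member in 11 of 23 genes (47.8%), including the acetyltransferase EP300 and the methyltransferase KMT2C (2 each). Cytoskeletal linkers had one in 4 of 10 (40.0%), of which UTRN had 6 and MACF1, with 9 T98G rows, had 1. Genes of splicing, decay and translation had one in 8 of 22 (36.4%). Extracellular matrix and adhesion genes had one in 2 of 12 (16.7%), namely COL12A1 (7) and fibronectin, FN1 (2).

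Although no member exon was called in another line, 166 of the 353 genes had another row in the U87MG or K562 list (47.0%, 41.9 to 52.2), 136 in U87MG and 65 in K562. Over all genes of the T98G list the count was 550 of 1982 (27.7%). In 147 of the 353 genes a further T98G row was itself called in another line, so most of the members' count follows from rows through which a gene can meet the rule. For the 161 genes with 1 member, another T98G row of the gene was by definition wide or also called elsewhere.

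The full-length T98G list, which the rule did not use, held 87 of the 598 members on the same strand (14.5%, 11.9 to 17.6). Over all T98G rows the share was 12% (310 of 2573). It was 10.4% in exons of genes with 1 listed exon, 4.15 points lower (0.715 to 7.74), and 17.5% in exons also called in another line, with members minus these exons at -2.93 points (-7.60 to 1.56). Counted over genes, 50 of 353 member genes (14.2%) and 87 of 837 genes with 1 listed exon (10.4%) had such an exon in a full-length target. The interval of this difference, 3.77 points (-0.186 to 8.22), holds 0. Overlap was by position on the same strand, without matching gene names, so a neighbouring gene's target can count. Among the 11 genes with at least 4 members, COL12A1, with 7, and HERC2, with 4, had members in a full-length target. ATM (3 members) did too. Genes with 2 members that did so include FN1, the low-density lipoprotein receptor relative LRP1 and the RNA polymerase II subunit POLR2A. The splicing factor SF3B1, the importin KPNB1 and the nucleoporin NUP205 are others. Expression levels were not analysed here, and their part in these shares was not tested.

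**Figure D4:**
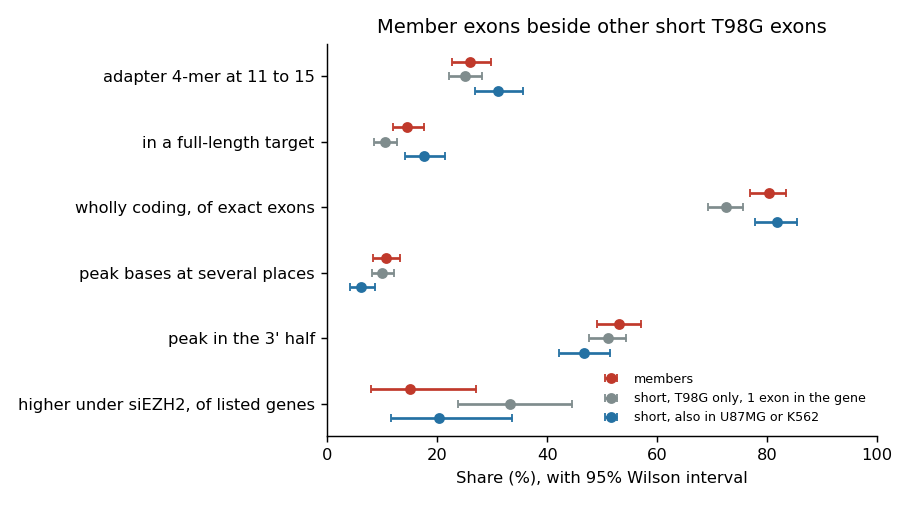
Shares (%) with 95% Wilson intervals for members and 2 other sets of short T98G exons, over exons except in the bottom row, which is over genes listed in the knockdown table. Members lie at 26.0% for the first 4 adapter bases, near both other sets, and at 15.1% for genes higher under siEZH2, where genes with 1 listed exon lie at 33.3% and genes with exons also called in another line at 20.4%. In the bottom row this last set shares genes with the members.

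In the authors' deposited table of genes changed by siRNA against EZH2 in U87MG cells, 53 of the 353 member genes were listed (15.0%, 11.7 to 19.1). Over all genes of the T98G small RNA list the share was 9.94% (197 of 1982). It was 8.96% in genes with 1 listed exon and 12.7% in genes with exons also called in another line. The authors' deposited table gave lower values under siEZH2 for 45 of them and higher values for 8 (15.1% higher, 7.85 to 27.1), whereas 49.3% of all its 1342 rows were higher. Of the 197 genes of the whole T98G small RNA list found in the authors' deposited table, 50 were higher (25.4%, 19.8 to 31.9). Among genes with 1 listed exon, 25 of 75 in the authors' deposited table were higher (33.3%, 23.7 to 44.6), and members minus these genes was -18.2 points (-31.6 to -2.89). Among genes with exons also called in another line, 10 of 49 in the authors' deposited table were higher (20.4%, 11.5 to 33.6), an interval that holds the members' share. This gene set is not separate from the members, because 147 of the 353 member genes also hold a T98G row called in another line. An excess of lower values among small RNA targets was known before these genes were chosen, and the table comes from a line in which the member exons were not called. The table does not list EZH2, so the depletion was not checked, and the treatment label of 1 of the 2 siEZH2 libraries names EZH3.

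The changes were small. In the authors' deposited table the median log2 fold change of the 45 lower member genes was -0.70, from -1.19 to -0.40, and over all 681 lower rows it was -0.74. In the authors' deposited table the lowest values were in BTAF1, an ATPase that removes TATA-binding protein from DNA (-1.19), the ubiquitin ligases MYCBP2 (-1.13) and UBR4 (-1.05), REV3L, the catalytic subunit of DNA polymerase zeta (-1.0), and the dynein heavy chain DYNC1H1 (-0.98). The highest values in the authors' deposited table were in KIF11, the kinesin of the mitotic spindle (1.34), GOLIM4, a Golgi protein (0.78), the elongation factor ELL2 (0.75), the import receptor IPO5 (0.68) and the clock gene PER3 (0.68).

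Of the ubiquitin list, 5 member genes were in the authors' deposited table and all 5 were lower, HUWE1 at -0.96, BIRC6 at -0.85 and HERC1 at -0.54 besides MYCBP2 and UBR4. Of the motor list, DYNC1H1 was lower and KIF11 higher in the authors' deposited table; the kinesin KIF1C, not on that list, was lower. None of the 11 genes with at least 4 members was listed there. In the authors' deposited table, the 8 member genes with a member in a T98G full-length target were all lower. They were UBR4, DYNC1H1, HUWE1, the kinase MTOR (-0.90), KIAA0100 (-0.79), ZC3H7B (-0.75), KIF1C (-0.65) and the repair kinase PRKDC (-0.57). Of the 53 member genes with a deposited value, 45 were lower, so all 5 or all 8 being lower can arise at that share alone. Whether full-length targets or ubiquitin genes differ from the other member genes was not tested. RANBP2 (-0.79) and RGPD4 (-0.80), RGPD8 (-0.74) and RGPD6 (-0.55) have separate rows in the authors' deposited table but share near-identical sequence, so they may not be separate observations.

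**Figure D5:**
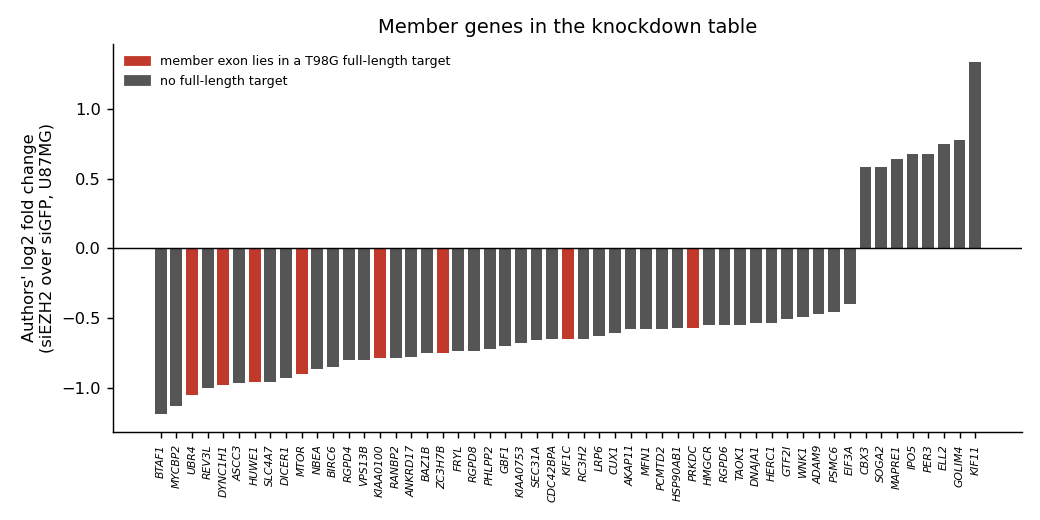
The authors' deposited log2 fold change (siEZH2 over siGFP in U87MG, vertical axis) for the 53 member genes in the table, in order; red bars are genes whose member exon lies in a T98G full-length target. Bars run from -1.19 in BTAF1 to 1.34 in KIF11, 45 are below 0, and all 8 red bars are among them.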

How the data were processed

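The files hold region lists from RIP-seq of EZH2 in T98G, K562 and U87MG cells, and a knockdown table. Per the labels, the authors' small RNA workflow was cutadapt for the adapters, BWA against hg19, bedtools for counts per exon, DESeq2 for the exon calls and pyicoclip for the peaks; thresholds and the exon annotation are not given in the sources used here. The siEZH2 table gives the authors' log2 fold change from DESeq2, after Tophat and featureCounts per the labels, and is named for siEZH2 over siGFP, a direction taken as given. The retained intron list carries a deposited score on an unstated scale, which was not used. The deposited distances are signed numbers of bases. There were 0 columns for single libraries.

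Members and comparison sets were selected by the rule in Python 3.11. The members, the window of starts and all gene lists were chosen with earlier results of these data known. All 5848 rows of the 6 lists lie within the GRCh37 chromosomes. The peak middle is the exon middle minus the deposited distance; this sign was settled from the same adapter letters, so the matches do not test it. Peaks off a whole base boundary (2 members) were left out. Sequence was read with pysam 0.24.0 from GRCh37 and annotation from GENCODE release 44, whose canonical transcripts gave exon numbers. Motifs were read on the RNA strand; longer motifs contain the shorter ones. The count of partial matches to 7 letters was added after the data were seen. Genes named are those with at least 4 members, up to 5 each with the longest runs and the highest and lowest fold changes, and members of the lists; the full-length genes and those matched at all peaks were picked after their values were seen. Shares have 95% Wilson and differences Newcombe intervals. The window counter and intervals were tested on simulated data. Alternatives changed the width limit, overlap, gene rule, window, sign, strand, matching and annotation.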

Additional observations from a re-analysis of the deposited data

How the results depend on the processing

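No paired analysis was possible because the lists hold no values for single libraries, and for the same reason no replicate could be left out. The number of members was 568 with a limit of 400 bp, 614 with 600 bp, 605 with every symbol of a row and 598 with overlap on the same strand only; asking for at least 3 rows of the gene left 254. The share of member peaks with AGAT, 26.0% at starts 11 to 15, was 6.88% at start 11 alone and 30.5% at starts 9 to 17, as narrower and wider windows must give. It was 3.19% with the other sign of the distance, and 27.0% with 1 exon per gene. Members minus exons of genes with 1 listed exon stayed within -0.435 to 1.93 points, changing sign at start 11 alone (-0.435). Members minus exons called in another line was -9.94 points at start 11 alone, an alternative added after the data were seen, where the interval no longer held 0. The share of coding exons rose from 80.3% to 94.5% when any coding overlap over all members counted. For the full-length share (14.2% to 14.9%) and the consecutive pairs (12.6%) the alternatives moved little. The share higher under siEZH2 in the authors' deposited table was 15.1% when genes were matched by position, 16.0% without the RGPD genes (added after the data were seen) and 1 of 4 genes with an absolute log2 fold change of at least 1 (REV3L, which rounds to -1.0, lies just short of it).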

Other observations

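Exon length in frame was compared because an exon whose width is divisible by 3 can be skipped without a shift of the reading frame. Among 458 members that are internal, wholly coding exons of the canonical transcript, 175 had such a width (38.2%, 33.9 to 42.7). The share was 38.4% (34.5 to 42.5) in exons of genes with 1 listed exon and 42.1% (36.8 to 47.6) in exons also called in another line, and these intervals overlap.

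Chromosomes 2 and 1 held the most members (62 and 50). Chromosome 15 held 41, among them exons of HERC2, HERC2P2 and VPS13C. These counts were not set beside all T98G rows of each chromosome, so they show no excess of members on any chromosome.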
